A study of Homo sapiens with 8 samples.

Results

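The histone deacetylases described here were 10 genes, HDAC1 to HDAC8, HDAC10 and HDAC11, whose messenger RNAs were followed through a block of transcription in SW480 cells. Members were taken by gene symbol, with every RefSeq transcript of these genes that the authors' deposited tables list: 19 of the 21328 transcripts in the control table and 18 of the 20474 in the knockdown table, with 18 of the 19334 in both. HDAC1, HDAC2, HDAC3, HDAC4 and HDAC6 had 1 listed transcript each, and HDAC5, HDAC7, HDAC8, HDAC10 and HDAC11 had several. HDAC9 was not analysed here.

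SW480 is an established line of human colorectal adenocarcinoma, although the series text speaks of breast cancer cells. The cells carried either a control shRNA or a hairpin directed at RBMS1, a protein that binds single-stranded nucleic acids and is studied as a regulator of mRNA stability. For RBMS1, 2 hairpin clones are named in the series text and the treatment protocols give 1 of them, so whether the knockdown libraries came from a single clone was not settled, and the control hairpin is not identified beyond its name. RNA was taken untreated (0 h) or after 9 h of alpha-amanitin at 10 µg/mL, a toxin that blocks RNA polymerase II, with 2 libraries for each of the 4 combinations of shRNA and time (8 in all). All 8 libraries came from cells that carried an shRNA.

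Each deposited value is the authors' log2 fold change of a transcript at 9 h over 0 h, with the libraries of a group already combined. A value under 0 means that the transcript made up less of the library after the block, and a value above 0 that it made up more. The read depth and the spread between libraries are unknown, so whether a value exceeds the error between replicates cannot be said, and the values carry no test. For counting, the mark was a 2-fold change, which is 1 in log2. In bulk RNA, fewer cells of a type and less RNA per cell cannot be told apart. Of the epithelial markers fixed for these cells, 7 of 8 were listed per the authors' deposited tables, against 3 of 16 markers of fibroblasts, immune, endothelial and blood cells. The transcripts of the targeted gene RBMS1 were at 0.09 and −0.37 in the control and at −0.35 and −1.38 in the knockdown table deposited by the authors, a ratio over time within each population that does not measure how far RBMS1 was depleted.

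Histone deacetylases remove acetyl groups from lysines of histones and many other proteins, and those listed here need zinc for catalysis. Class I enzymes are mostly nuclear: HDAC1 and HDAC2 are the catalytic subunits of the SIN3, NuRD, CoREST and MiDAC corepressor complexes, HDAC3 works in a corepressor complex of its own, and HDAC8 acts outside these complexes, for instance on cohesin. Class IIa enzymes (HDAC4, HDAC5 and HDAC7) have little catalytic activity of their own, bind MEF2 transcription factors and leave the nucleus when 14-3-3 proteins hold them. HDAC6 deacetylates tubulin in the cytoplasm, HDAC10 deacetylates polyamines, and HDAC11, the only class IV enzyme, removes fatty acyl groups. Raised class I enzymes are a well known feature of colorectal tumours.

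HDAC5, HDAC7 and HDAC11 carried the large values, and in each the listed transcripts share most of their coding sequence. A coding splice by which the listed transcripts differ is shown for each, because their values are described one by one below; the models also differ in their first or last exons, and no value was tied to a splice. Each line gives 30 bases of mRNA, 5′ to 3′, across a splice junction, from GENCODE release 29 transcripts paired with the RefSeq accession (GRCh38). In HDAC5 (chromosome 17, minus strand) the capitals mark 3 bases that begin an exon in 1 transcript, at 44110729 to 44110803, and are left out of the other, whose exon runs from 44110729 to 44110800. In HDAC11 (chromosome 3, plus strand) the capitals mark the first 15 bases of an exon that starts at 13496736 in the longer form and at 13496805 in the shorter form and ends at 13496852 in both. In HDAC7 (chromosome 12, minus strand) the capitals mark the first 15 bases after the junction, either of an exon of 111 bases (47795906 to 47796016) or 51 bases (47802224 to 47802274), or of the exon that follows where it is skipped.
HDAC5 NM_001015053: ccaacgagtcggCAGatgggatgtcaggtc
HDAC5 NM_005474: ccaacgagtcggatgggatgtcaggtcggg
HDAC11 NM_024827: cttaatgagctcaagTGGTCCTTTGCTGTT
HDAC11 NM_001136041: cttaatgagctcaagAGGAAGGTGCTGAGG
HDAC7 NM_015401, exon of 111 bases kept: atcctgggctcggagGCGCTCTTGGGCCAG
HDAC7 NM_001098416, the same exon skipped: atcctgggctcggagGCTGACAGTGACCGC
HDAC7 NM_015401, exon of 51 bases kept: acagccccggcgctgATGGGACCCAGGTGA
HDAC7 NM_001308090, the same exon skipped: acagccccggcgctgGCTGCCCCAGGCCCT

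The first comparison asked how much of each HDAC mRNA was left after the block in control cells. HDAC2, HDAC3, HDAC6, HDAC4 and all HDAC8 transcripts lay inside the quartiles of the table (−0.58 and 0.37), with HDAC4 near the lower one, HDAC1 lay above the upper one, and the extremes were transcripts of HDAC5 and HDAC11. Over the 19 HDAC transcripts the median was 0.03, beside −0.04 over all 21328, and the range in the authors' deposited table was −2.72 to 3.83. At −1 or below were 3 of 19 HDAC transcripts (15.8%), beside 13.8% of all transcripts, and at 1 or above 2 of 19 (10.5%), beside 8.32%. These shares were near those of the whole table.

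HDAC1 (chromosome 1, 32292086 to 32333635) was at 0.45 in the control cells and 0.44 in the knockdown cells per the authors' deposited tables, higher than 79% and 79.1% of the transcripts listed. Its partner HDAC2 (chromosome 6, 113933028 to 114011308) was at −0.05 in the control cells and 0.34 in the knockdown cells per the authors' deposited tables. The order of these paralogs was thus the same in both populations, HDAC1 above HDAC2, but the gap between them was smaller in the knockdown. HDAC3 (chromosome 5, 141620876 to 141636870), the catalytic subunit of another corepressor complex, was at 0.24 and 0.30 per the authors' deposited tables. None of the 3 genes that act as catalytic subunits of corepressor complexes lay at −1 or below in either population. Of all genes with 1 transcript in both tables, 9.75% did so in control and 8.81% in knockdown cells. A count of none among 3 genes therefore does not set them apart.

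HDAC8 (chromosome X, 72329516 to 72573199) had 5 listed transcripts, the most of any member. In the authors' deposited tables NM_018486, which encodes the longest protein of the listed forms, was at 0.22 in the control cells and 0.22 in the knockdown cells. NM_001166448, with the shortest coding sequence (417 bases), was at 0.23 and 0.20 and NM_001166419 at −0.31 and −0.35 per the authors' deposited tables. These 3 transcripts therefore had nearly the same value in both populations. The remaining pair are short forms with 438 and 474 coding bases, against 1131 in NM_018486, and they moved in opposite directions: per the authors' deposited tables NM_001166420 was at −0.31 in the control cells and 0.31 in the knockdown cells, and NM_001166422 at 0.27 and −0.34. All 5 lay within 0.58 of each other in the control cells and 0.67 in the knockdown cells. Of 123 genes with 5 shared transcripts, 96.7% spread at least as widely in control and 93.5% in knockdown cells, so HDAC8 was among the tightest of such genes. Its exons overlap 1193 exon bases of AL133500.1, annotated as coding on the same strand, and reads of the overlap cannot be told apart. HDAC3 has an antisense neighbour, AC008781.1, over 106 exon bases.

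**Figure D1:**
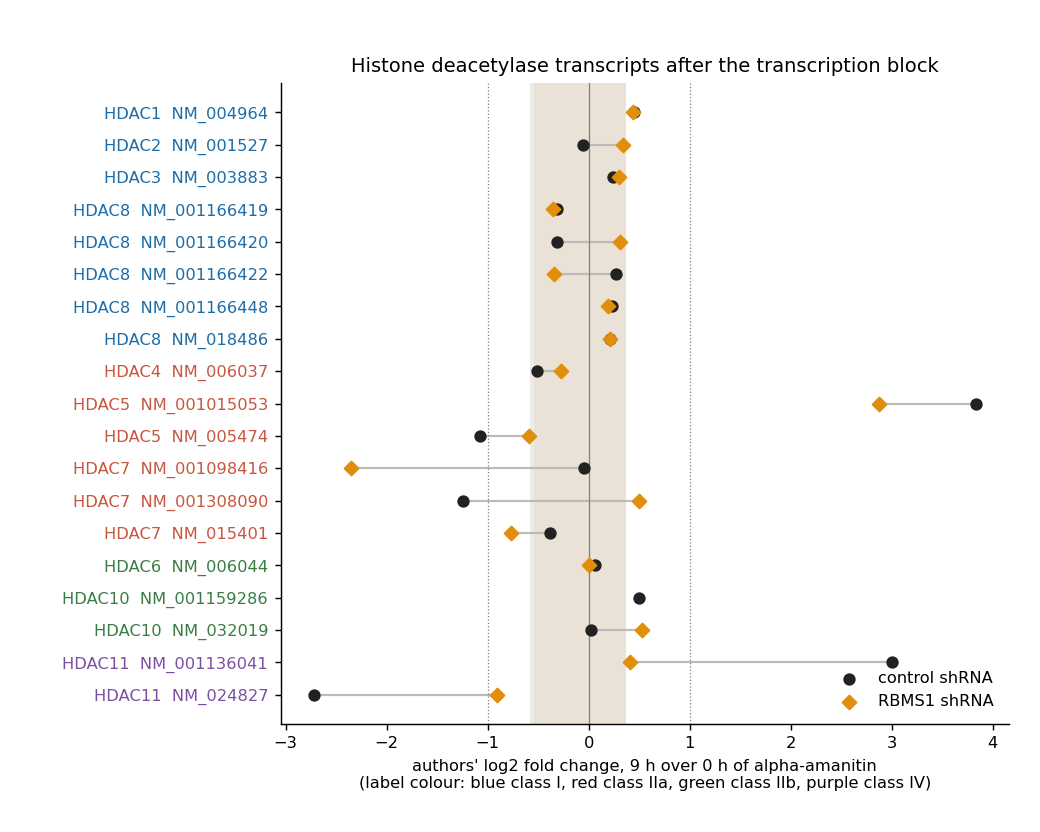
Log2 fold change at 9 h over 0 h of alpha-amanitin (horizontal axis) for each HDAC transcript, in control shRNA cells (black circles) and RBMS1 shRNA cells (orange diamonds), as deposited by the authors; shaded bands are the quartiles of all transcripts in each table and dotted lines mark −1 and 1. HDAC1, HDAC3, HDAC6 and 3 of the 5 HDAC8 transcripts have nearly coincident symbols, whereas HDAC7 and HDAC11 transcripts are joined by long lines.

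Among the class IIa genes, HDAC4 (chromosome 2, 239048168 to 239401654) was at −0.52 in the control cells and −0.27 in the knockdown cells per the authors' deposited tables. It was the lowest of the 5 members with a single listed transcript in both populations, higher than 27.4% and 37.1% of the transcripts listed. HDAC4 represses genes bound by MEF2 and is known for signal-dependent export from the nucleus.

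HDAC5 (chromosome 17, 44076746 to 44123702), a class IIa paralog of HDAC4, gave very different values for its 2 transcripts. In the authors' deposited tables NM_001015053 was at 3.83 in the control cells and 2.87 in the knockdown cells, the highest value of any HDAC transcript in each. NM_005474 was at −1.08 in the control cells and −0.59 in the knockdown cells per the authors' deposited tables. NM_001015053 was thus the higher in both populations, by 4.91 in the control cells and 3.47 in the knockdown cells. Of 2879 genes with 2 shared transcripts, 3.79% had a gap at least as large in control and 6.43% in knockdown cells, and 60.5% had the same transcript higher in both. The coding sequences of the paired models are 3369 and 3366 bases long. The models differ more outside the coding sequence, with a first exon of 135 or 22 bases and a 3′UTR of 1630 or 82 bases. Of the 5326 bases of NM_001015053, 1686 are in no other listed form, against 22 of 3662 for NM_005474. Such ends may not match those of the RefSeq accession. How reads were divided between the forms is not stated in the sources used here, and its part in the gap was not tested.

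HDAC7 (chromosome 12, 47782722 to 47833132) had 3 listed transcripts that changed order between the populations. NM_015401, which keeps both variable exons, was at −0.38 in the control cells and −0.77 in the knockdown cells per the authors' deposited tables. NM_001098416, which skips the exon of 111 bases, was at −0.04 in the control cells and at −2.35 in the knockdown cells per the authors' deposited tables, the lowest HDAC value there. NM_001308090, which skips the exon of 51 bases, went the other way, from −1.24 to 0.50 per the authors' deposited tables. Its paired model also has a shorter 3′UTR, of 190 bases against 1119 in the other forms. The transcript that was lowest in control cells was therefore highest in knockdown cells. Of 1015 genes with 3 shared transcripts, only 30.4% kept the same order, so a change of order does not by itself set HDAC7 apart. A spread at least as wide as that of HDAC7 was found for 56.8% of these genes by control values and 20.5% by knockdown values. In the paired models every base of NM_001098416 and of NM_015401 is also found in at least 1 other listed HDAC7 transcript, NM_001308090 has 20 bases found in no other, and NM_015401 has no junction of its own. Antisense AC004466.1 overlaps 219 exon bases of HDAC7 and SLC48A1, also on the opposite strand, 32, and whether counting used strand is not given.

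**Figure D2:**
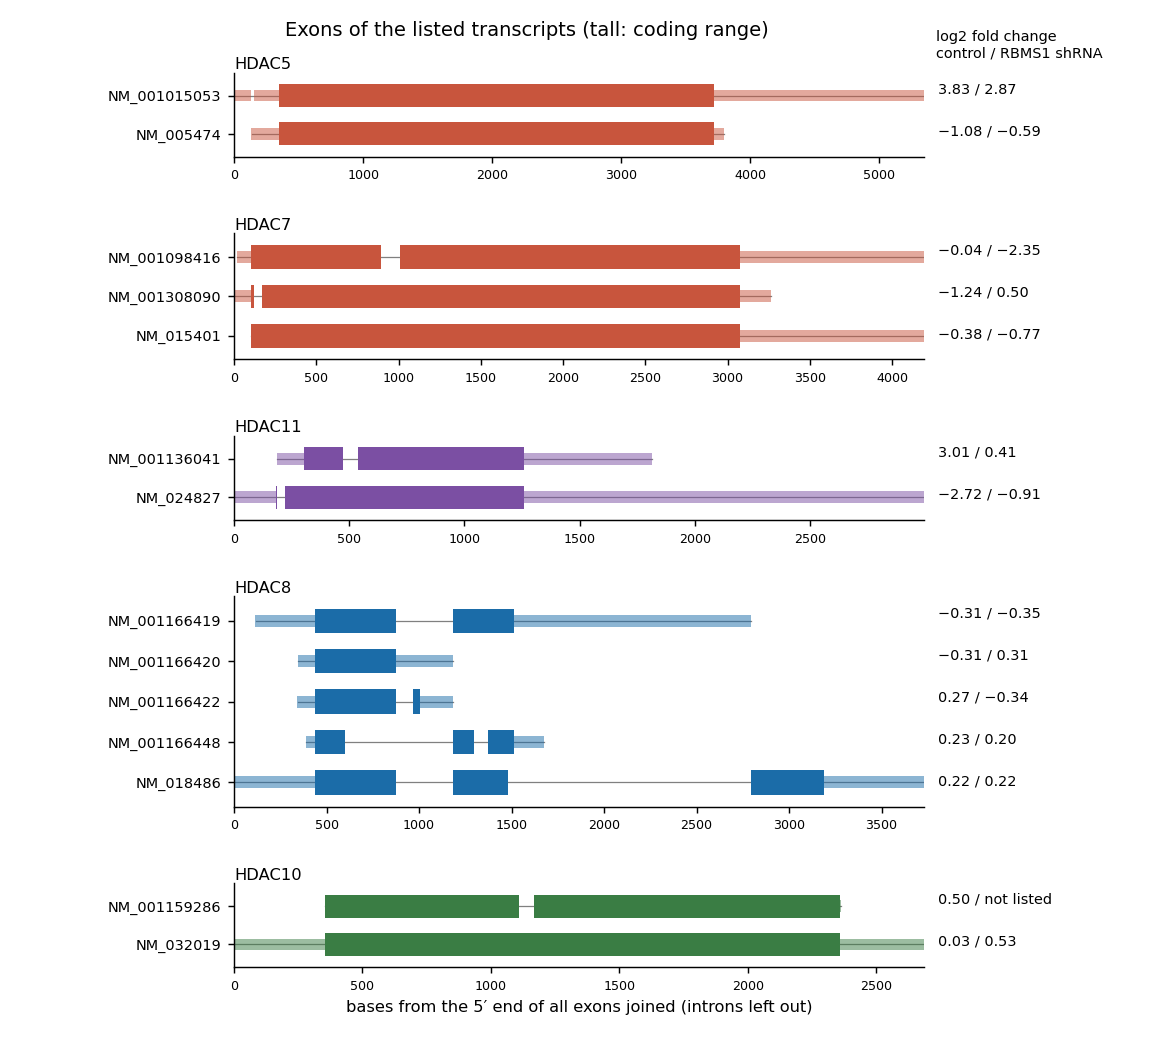
Exons of the listed transcripts of the 5 HDAC genes with several, from GENCODE release 29, drawn to scale in bases from the 5′ end of all exons joined with introns left out; tall blocks are the coding range, pale blocks are untranslated, and the numbers at the right are the authors' log2 fold changes in control and RBMS1 shRNA cells. The coding blocks of the HDAC5 forms look identical because they differ by 3 bases, but their 3′UTRs are 1630 and 82 bases long. Their values are 3.83 and −1.08 in control cells.

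Of the class IIb genes, HDAC6 (chromosome X, 48801377 to 48824982) was at 0.07 in the control cells and 0.01 in the knockdown cells per the authors' deposited tables, close to the median transcript of each. HDAC10 (chromosome 22, 50245183 to 50251405) was at 0.03 and 0.53 for NM_032019 per the authors' deposited tables. Its second transcript, NM_001159286, which skips an exon of 60 bases, was at 0.50 in the authors' deposited table for control cells and had no partner value for knockdown cells. HDAC10 shares 2329 exon bases with transcripts annotated to the neighbouring kinase gene MAPK12 on the same strand, and how reads of the overlap were assigned is not given.

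HDAC11 (chromosome 3, 13479724 to 13506424) held the widest gap of the family in control cells, though not in knockdown cells, where HDAC5 and HDAC7 spread more. In the authors' deposited tables NM_001136041, which starts at another first exon and uses the shorter exon shown above, was at 3.01 in the control cells and 0.41 in the knockdown cells. NM_024827, with 1041 coding bases against 888, was at −2.72 in the control cells and −0.91 in the knockdown cells per the authors' deposited tables, the lowest HDAC value of the control table. The gap was 5.73 in the control cells and 1.32 in the knockdown cells, with the same transcript higher in both. Of the 2879 genes with 2 shared transcripts, 3.13% had a gap at least as large in control and 27.4% in knockdown cells. Both HDAC11 transcripts thus lay closer to the middle of the table in the knockdown, from opposite sides. The paired models differ most in the 3′UTR, of 550 bases in NM_001136041 and 1733 in NM_024827. Of the 1559 bases of NM_001136041, 36 are in no other listed form, against 1437 of 2960 for NM_024827. The part of any of these differences in the gap was not tested.

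In knockdown cells the family as a whole had a median of 0.21 over 18 transcripts, beside −0.03 over all 20474. At −1 or below was 1 of 18 (5.56%), an HDAC7 transcript, beside 12.9% of all transcripts. At 1 or above was 1 of 18 (5.56%), an HDAC5 transcript, beside 8.65%. Under 0 in both populations were 6 of the 18: HDAC4, NM_005474 of HDAC5, NM_001098416 and NM_015401 of HDAC7, NM_001166419 of HDAC8 and NM_024827 of HDAC11. Above 0 in both were 8: HDAC1, HDAC3, HDAC6, NM_032019 of HDAC10, NM_001015053 of HDAC5, NM_001136041 of HDAC11 and NM_001166448 and NM_018486 of HDAC8. HDAC2, NM_001166420 and NM_001166422 of HDAC8 and NM_001308090 of HDAC7 had opposite signs. The shares of all shared transcripts with these sign patterns were not computed, so the 3 counts only describe the members. Taken singly, 52.6% of HDAC transcripts were above 0 in control cells, beside 47.6% of all. In knockdown cells the shares were 61.1% and 47.9%.

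Signs near 0 depend on the scale of the library. Relative to the median of cytosolic ribosomal protein transcripts (0.41 in the control cells and 0.38 in the knockdown cells), the median of all transcripts moved to −0.45 and −0.42 and that of the HDAC transcripts to −0.39 and −0.18. On that scale 4 of 19 HDAC transcripts in control and 5 of 18 in knockdown cells stayed above 0, in place of 10 and 11. These are 21.1% and 27.8%, near the 23% and 24.1% of all transcripts above 0 on that scale. HDAC1 stayed above it, by 0.04 and 0.06, whereas HDAC3 lay at −0.17 and −0.08 and HDAC6 at −0.34 and −0.38.

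**Figure D3:**
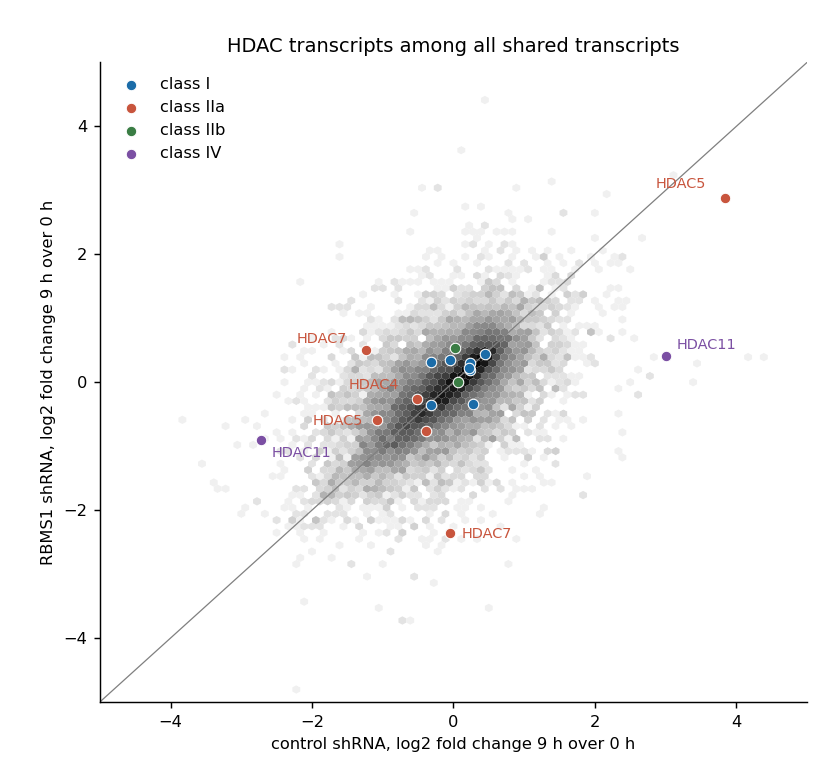
Log2 fold change in control shRNA cells (horizontal axis) against RBMS1 shRNA cells (vertical axis) for the shared transcripts inside the axes (grey hexagons, darker where more transcripts lie, log colour scale) and the HDAC transcripts (coloured by class), with the line of equal values. Class I and IIb transcripts sit near the dense centre, and both HDAC11 and a pair of HDAC7 transcripts lie away from the line on opposite sides.

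The second comparison asked whether the apparent stability of HDAC mRNAs differed between knockdown and control cells. For each shared transcript the control value was taken from the knockdown value, and the median of these differences over all shared transcripts (−0.02) was subtracted. Over the 18 shared HDAC transcripts the median centred difference was 0.01, with a lowest value of −2.57 and a highest of 1.83. At 1 or above were 2 of 18 (11.1%), beside 8.98% of all shared transcripts, and at −1 or below 2 of 18 (11.1%), beside 8.65%. The 4 transcripts past the mark belonged to 2 genes, HDAC7 and HDAC11, and each gene had 1 on each side.

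For HDAC11 the centred difference was −2.57 for NM_001136041 and 1.83 for NM_024827. For HDAC7 it was −2.29 for NM_001098416, 1.76 for NM_001308090 and −0.37 for NM_015401. In both genes the transcripts of a single locus therefore differed from each other far more than the gene mean differed from 0, since the means over shared transcripts were −0.37 for HDAC11 and −0.30 for HDAC7. A gene with at least 1 transcript at 1 or above and another at −1 or below was found in 5.31% of 2879 genes with 2 shared transcripts and in 17.8% of 1015 genes with 3. The mean of log2 values is no measure of the gene's total mRNA, which would need the abundance of each form.

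HDAC5 had centred differences of −0.94 for NM_001015053 and 0.50 for NM_005474, so its forms also went opposite ways, just inside the mark on the lower side. The values of NM_001098416 and NM_005474, at −2.29 and 0.50, and those of the other class IIa forms show no common direction for the class, with 3 of its 6 transcripts above 0. In HDAC8 the centred differences ran from −0.60 to 0.64, and 3 of 5 lay within 0.03 of 0.

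The 6 members with 1 transcript in both tables were HDAC1, HDAC2, HDAC3, HDAC4, HDAC6 and HDAC10, and none passed the mark, beside 5.95% of 8073 genes of that kind. Of the 12 HDAC transcripts of genes with several shared transcripts 4 passed it (33.3%), beside 26.1% of 11164. HDAC10 had the highest centred difference of the 6, at 0.52, followed by HDAC2 at 0.41 and HDAC4 at 0.26. HDAC3 at 0.08, HDAC1 at 0.01 and HDAC6 at −0.04 lay inside the quartiles of such genes (−0.15 and 0.19). The first 3 lay above the upper quartile, and whether they exceed the error between libraries cannot be known from these values.

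**Figure D4:**
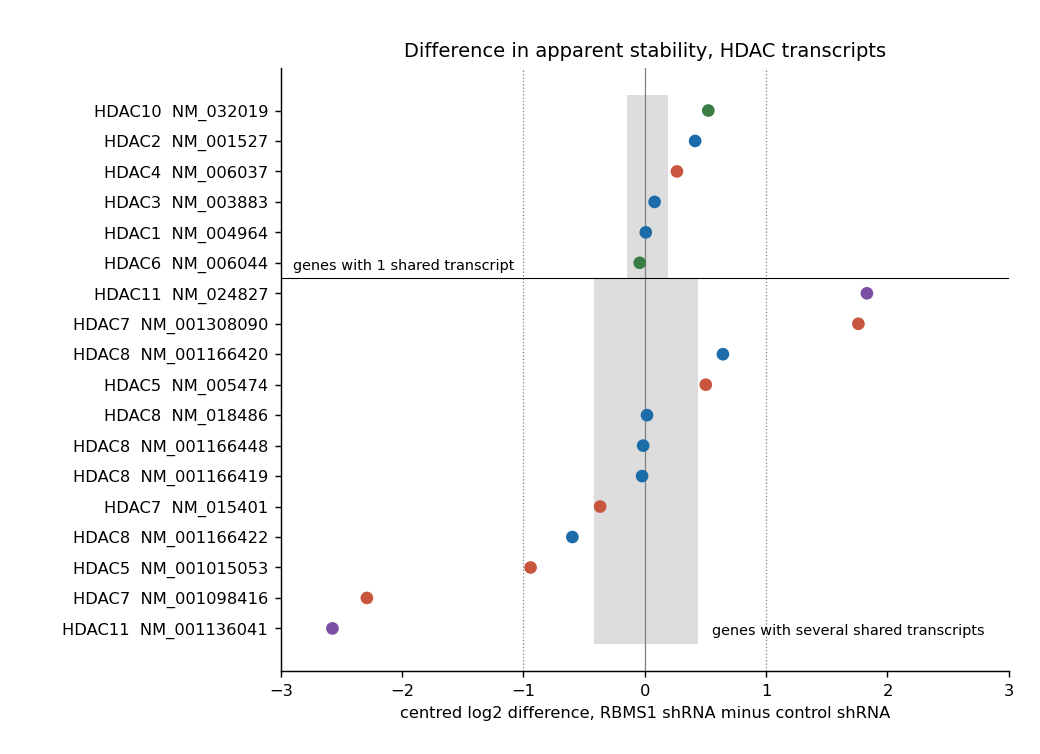
Centred log2 difference, RBMS1 shRNA minus control shRNA (horizontal axis), of each HDAC transcript in both tables, coloured by class (blue I, red IIa, green IIb, purple IV) and split into genes with 1 shared transcript (top) and with several (bottom); grey bands are the quartiles of all transcripts of each kind, and dotted lines mark −1 and 1. The top 6 transcripts run from −0.04 to 0.52, and the bottom 12 from −2.57 to 1.83.

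Because RBMS proteins bind AU-rich sequence with the word ATATA, that word and the AU-rich element core ATTTA were counted on the mRNA strand in the 3′UTR of the paired models, with overlapping matches counted. Of 18632 such 3′UTRs, 52.4% held ATATA and 64.1% held ATTTA. HDAC4 held ATATA 22 times in 4929 bases and HDAC2 also 22 times in 8030 bases. Of 980 3′UTRs from 20% shorter to 25% longer than that of HDAC4, 5.71% held as many, and of 308 in the same range around that of HDAC2, 23.1%. With only overlapping words joined, the words of HDAC4 lay in 10 tracts and those of HDAC2 in 17. Some of these tracts abut or lie a few bases apart, so they are not all separate sites. HDAC2 held ATTTA 29 times and HDAC4 5 times. In the same length ranges, 13.6% of 3′UTRs held at least as many as HDAC2 and 86.2% at least as many as HDAC4. HDAC1 held each word 2 times in 591 bases. HDAC3, HDAC7 and HDAC11 held neither word in any listed form. HDAC6 held ATTTA 1 time in 370 bases and no ATATA, as did NM_032019 of HDAC10 in 324 bases. In HDAC8, 4 of 5 forms held ATATA, from 1 to 2 times, and NM_001166448 did not, and in HDAC5 the longer 3′UTR, of NM_001015053, held it 1 time.

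The longest ATATA tract of HDAC4 and of HDAC2 and the first of HDAC1 are shown, since these are the members with a single listed transcript that hold the word; capitals mark the tract, and the lines read 5′ to 3′ on the mRNA. The HDAC4 window lies on the minus strand at chr2:239051841-239051870, that of HDAC2 on the minus strand at chr6:113933796-113933825 and that of HDAC1 on the plus strand at chr1:32333123-32333152 (GRCh38).
HDAC4 NM_006037: gaaaaagtATATATATATATATAaaatgaa
HDAC2 NM_001527: tacacacacATATATATATATAcatgtgta
HDAC1 NM_004964: tctctgtgtatttATATAaaaatttattaa

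HDAC4 and HDAC2, with the most ATATA words, had centred differences of 0.26 and 0.41, and HDAC1, HDAC3 and HDAC6, with 2 or none, of 0.01, 0.08 and −0.04. HDAC10 lacked the word in NM_032019 and had 0.52, the highest of these. Among genes with several shared transcripts, the HDAC5 form that held 1 word had −0.94. The HDAC8 forms with 1 or 2 words ran from −0.60 to 0.64. The counts follow 3′UTR length in part. Per kilobase, HDAC4 held 4.46 ATATA words, HDAC1 3.38 and HDAC2 2.74, beside 1.78 over all 3′UTRs. By this measure HDAC1, with a centred difference of 0.01, ranked above HDAC2. The transcripts past the mark in either direction, of HDAC7 and HDAC11, held no ATATA in their 3′UTRs. Those 3′UTRs were poor in A and T, at 38.4% to 44.2% beside 57.8% over all. A match describes these letters in these windows and is no evidence of binding. Whether the words relate to the differences was not tested.

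The members were then set beside their partners and opponents as gene means over shared transcripts, with differences centred on the median gene. Over all 12480 genes the medians were −0.07 in the control cells and −0.06 in the knockdown cells. Background shares were 9.74% at −1 or below and 3.49% at 1 or above in control cells, 9.2% and 4.06% in knockdown cells, and 4.16% and 4.87% for the centred difference. The 10 HDAC genes had medians of 0.05, 0.15 and 0.01 in the same order. Only HDAC5, at 1.38 and 1.14 as means of the values in those tables the authors deposited, was past the mark in either population, and no HDAC gene was past it in the difference. The HDAC5 means joined forms at 3.83 and −1.08 in control cells and at 2.87 and −0.59 in knockdown cells, so 1 form carried them.

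The 32 measured subunits of the SIN3, NuRD, CoREST and MiDAC complexes, in which HDAC1 and HDAC2 work, had medians of −0.24 in the control cells and −0.09 in the knockdown cells and of 0.13 in the centred difference. In control cells 5 of 32 lay at −1 or below and none at 1 or above, in knockdown cells 2 and none, and in the centred difference none and 4. HDAC1 lay above the median of each of its 4 complexes in both populations. HDAC2, at −0.05, lay just under the NuRD median of 0.03 in control cells and above the others. In the SIN3 complex (13 of 13 measured, control median −0.51), the scaffold SIN3A was at −1.25 and −0.98, its paralog SIN3B at −0.72 and 0.30, ARID4A at −1.08 and −0.56 and ARID4B at −1.40 and −1.35 per the authors' deposited tables. These SIN3B and ARID4B values come from 1 shared transcript each. Per the authors' deposited tables, another SIN3B form, listed only for knockdown cells, was at −0.21. Another ARID4B form, listed only for control cells, was at −0.13. SIN3B and SAP130 were the 2 past the mark in the difference, at 1.04 and 1.32. SAP130 reached this as the mean of transcripts at 2.82 and −0.18, so 1 form carried it.

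In NuRD (11 of 11, control median 0.03) GATAD2B, a zinc-finger subunit, was at −1.52 in the control cells and −0.09 in the knockdown cells per the authors' deposited tables, which makes its centred difference 1.45, from a single transcript. In MiDAC (3 of 3) the scaffold MIDEAS was at −3.60 and −1.07 for 1 transcript and −0.04 and −0.32 for the other, and TRERF1 at −0.69 and −1.35, per the authors' deposited tables. No measured gene of CoREST (5 of 6) was past the mark. The highest and lowest centred differences in CoREST were 0.81 for PHF21A and −0.12 for HMG20B.

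Of the partners of class IIa enzymes, MEF2D had a centred difference of 0.37 and MEF2A of −0.22 (2 of 4 measured), and among 14-3-3 proteins (7 of 7) YWHAZ had 0.82 and SFN −0.44, with none past the mark in any of the 3 values. YWHAZ owed its mean to 1 of 6 transcripts, NM_001135701 at 4.95, with the others between −0.51 and 0.42, and MEF2A to 1 of 3, NM_005587 at −1.09, with the others at 0.25 and 0.18. The sirtuins, which use NAD in place of zinc, had a median centred difference of −0.23 over 7 genes, with SIRT2 at −1.15 and SIRT3 at 1.02. Both were means of transcripts that differed widely, at −2.72, −0.94 and 0.23 for SIRT2 and at 2.20 and −0.16 for SIRT3. The acetyltransferases, which act against the deacetylases, were taken as 8 genes, without EP300 and CREBBP. KAT5 and KAT6B lay at −1.91 and −1.85 in control and at −1.71 and −0.56 in knockdown cells, as gene means of values in the authors' deposited tables. KAT6B had a centred difference of 1.30. KAT5 was a mean of transcripts at −3.18, −0.85 and −1.69 in control cells, with centred differences of 1.52, −0.67 and −0.21. The acetyltransferase median was −0.43 in control cells, against 0.05 for the HDAC genes, and this difference was not tested.

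**Figure D5:**
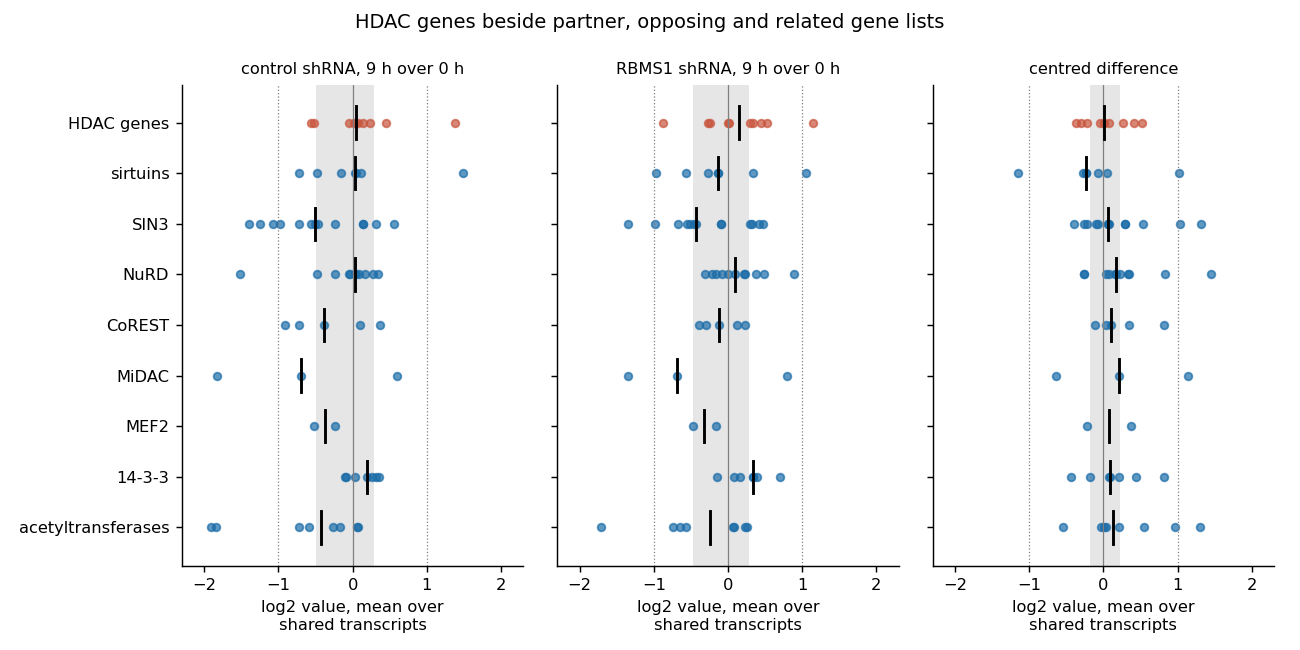
Log2 values as gene means over shared transcripts (horizontal axes) in control shRNA cells, in RBMS1 shRNA cells and as the centred difference, for the HDAC genes (red) and 8 related lists (blue); each point is a gene, black bars are list medians, grey bands are the quartiles of all genes and dotted lines mark −1 and 1. The HDAC genes have control and knockdown medians of 0.05 and 0.15, and all 10 lie inside the dotted lines in the difference.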

How the data were processed

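Total RNA of 8 SW480 libraries, depleted of ribosomal RNA, was sequenced from ScriptSeq libraries, per the labels' protocols. The submitters' processing notes list STAR 2.5, Cufflinks, Cuffdiff and hg38, with no roles. The authors deposited 2 tables of log2 fold changes, 1 value per RefSeq transcript and shRNA, with libraries combined. The base was taken as 2 because Cuffdiff writes log2, and the direction, 9 h over 0 h, from the short-lived MYC, FOS and JUN mRNAs, all under 0. The sources used here do not give the normalisation, depth or filter on transcripts.

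Accessions were paired with symbols by the RefSeq gene table (GRCh38.p14; 22132) or GENCODE release 29 (205), and 131 were left unpaired. Differences were centred on the median of all shared transcripts, and values 1 or more in size were counted, with no test. Gene means were taken over shared transcripts. Exons and 3′UTRs came from the GENCODE model paired with an accession, whose ends may differ from RefSeq's. Python 3.11.15 with pandas 2.3.3 was used, and the calculation was tested on simulated data. The members and lists were chosen with earlier results of these data known. Named from each list were genes past the mark, or else the highest and lowest difference; 1 list is not reported here. With 2 libraries per group, nothing in the labels says that they came from separate cultures.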

Additional observations from a re-analysis of the deposited data

How the results depend on the processing

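No paired analysis was possible because the deposited values carry no library or replicate number, and for that reason leaving out a replicate was not run. Of the family values recomputed under other settings, 49 stayed within 0.1 (log2 medians) or 1.5 times (counts) and 13 moved. Relative to ribosomal protein transcripts the HDAC median moved to −0.39 in control and −0.18 in knockdown cells, and 3 transcripts, in place of 1, lay at −1 or below in the knockdown (16.7%, beside 22.5% of all transcripts on that scale). With a fold of 1.5, 4 of 18 were lower in the knockdown table (22.2%, beside 23.5% of all), and in the difference 4 were lower (22.2%, beside 14.3%) and 3 higher (16.7%, beside 15.1%). Without HDAC7 and HDAC11, chosen after seeing the data, the control median was 0.14 with 1 transcript past the mark on each side, 0 were at −1 or below in the knockdown, and 0 passed in either direction of the difference. Taking the transcript with the smallest difference per gene gave a gene median of 0.17, with 1 gene, HDAC11 at 1.83, at 1 or above. Of the values for single genes 27 moved by less than 0.1, and the other 3 were HDAC5 at 0.50 and HDAC11 with that choice and HDAC10 at 0.28 with unshared transcripts included. Depth is unknown, so what it limits cannot be given.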
